A study of Mus musculus with 24 samples.

Results

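Immunoglobulin gene segments are the pieces of DNA from which antibody genes are assembled. The segments described here were chosen by a rule on annotation and detection. A row was a member if its biotype was IG_C_gene, IG_V_gene, IG_D_gene or IG_J_gene (constant, variable, diversity or joining segment) and its normalized count was above 0 in at least 3 of 24 libraries. Of 264 rows with these biotypes, 183 met the rule, among 47372 genes in all. Heavy chain symbols (Igh) made up 93 of 142 rows, kappa light chain symbols (Igk) 84 of 106 and lambda light chain symbols (Igl) 6 of 12, and 4 further rows carried none of the 3 prefixes and had no member. By class, 12 of 13 constant, 163 of 218 variable, 8 of 14 joining and 0 of 19 diversity rows were members. The other rows were above 0 in 1 or 2 libraries (35 rows) or at 0 in every library (46 rows). Detection therefore chose the members. Just inside the limit, Ighv11-1 and Ighv5-6 were above 0 in exactly 3 libraries, with highest values of 4.98 (7 reads) and 3.20 (4 reads). Just outside it, Ighv5-12-4 and Igkv3-10 were above 0 in 2 libraries, with highest values of 2.03 (1 read) and 1.85 (2 reads).

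The libraries came from bone marrow-derived macrophages (BMDM), which are bone marrow cells driven to become macrophages by medium conditioned by L929 cells. Marrow was taken from C57BL/6J mice that carry both liver X receptors (LXR-positive) and from mice lacking LXRalpha and LXRbeta (DKO, double knockout), all aged 8 to 12 weeks and labelled as strain C57BL/6J. Cells of 6 mice, 3 per genotype, each received 4 treatments, giving 8 groups of 3 libraries: vehicle, 100 ng/ml of the Toll-like receptor 4 agonist Kdo2-lipid A (KLA), 1 micromolar of the synthetic LXR agonist GW3965, or 50 ug/ml of acetylated low-density lipoprotein (AcLDL), a cholesterol-carrying particle that macrophages take up. KLA and GW3965 were given on day 5 for 17 hours, and the labels used here state no exposure time for AcLDL. No sort or gate is named, and whether the LXR-positive mice were littermates of the DKO mice is not stated. The whole marrow was cultured, so cells other than macrophages could be present at harvest.

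An antibody is made of heavy and light chains. In a developing B cell the heavy chain V, D and J segments, and the light chain V and J segments, are cut and joined, so that each B cell clone carries its own combination. The heavy chain is first made with the mu constant region (Ighm, the IgM heavy chain), and activated B cells can switch to a gamma (IgG), alpha (IgA) or epsilon (IgE) constant region. Plasma cells, the antibody-secreting end stage of the lineage that settles in bone marrow, carry very high levels of joined heavy and light chain transcripts together with Jchain, the joining chain of IgM and IgA polymers. Macrophages bind antibody through Fc receptors.

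Total counts ranged from 6448579 to 17348717 reads in LXR-positive libraries and from 9705391 to 27189081 in DKO libraries, so DKO libraries were the deeper ones in general. One read was worth 0.45 to 2.03 normalized counts. Whole-gene counts of the deleted genes do not check the genotype well: Nr1h2 (LXRbeta) was between 438 and 821 in LXR-positive and between 275 and 399 in DKO libraries, while Nr1h3 (LXRalpha) overlapped, at 114 to 1267 and 123 to 751. The macrophage identity was clear in all 24 libraries. Adgre1 (F4/80) was never below 11224 and Csf1r, the receptor for macrophage colony-stimulating factor, never below 16468.

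The summed immunoglobulin level was higher in DKO than in LXR-positive macrophages under every treatment, and in every mouse the KLA value was below the vehicle value (sums over members have no test here). In LXR-positive cells the sum over the 183 segments was 1067, 1075 and 1234 normalized counts with vehicle, and 45.7, 61.4 and 120 with KLA. With GW3965 it was 1086, 1032 and 1447, and with AcLDL 769, 834 and 872. In DKO cells it was 3365, 3595 and 2141 with vehicle, 1995, 1799 and 899 with KLA, 4291, 4362 and 2328 with GW3965, and 3273, 3105 and 1821 with AcLDL. The 2 genotypes did not overlap within any treatment, and DKO mouse 3 was the lowest of the 3 DKO mice in each of the 4 treatments. In bulk RNA, fewer cells of a type and less RNA per cell cannot be told apart, and this holds for every level below.

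One gene, Ighm, made most of the sum in 11 of the 12 LXR-positive libraries. It was 97.6 to 99.2% of the sum in the 9 without KLA, 91.4, 43.9 and 92.4% in the 3 with KLA, and 16.6 to 53.2% in the 12 DKO libraries. Without Ighm, the other 182 segments together reached 3.91 to 34.4 normalized counts in the 12 LXR-positive libraries and 750 to 2986 in the 12 DKO libraries. The log2 ratio of the vehicle group means was 1.43 for all segments and 6.49 without Ighm. With KLA these ratios were 4.37 and 6.16, with GW3965 1.62 and 7.08, and with AcLDL 1.73 and 7.29. Ighm is therefore given apart from the rest in what follows.

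**Figure D1:**
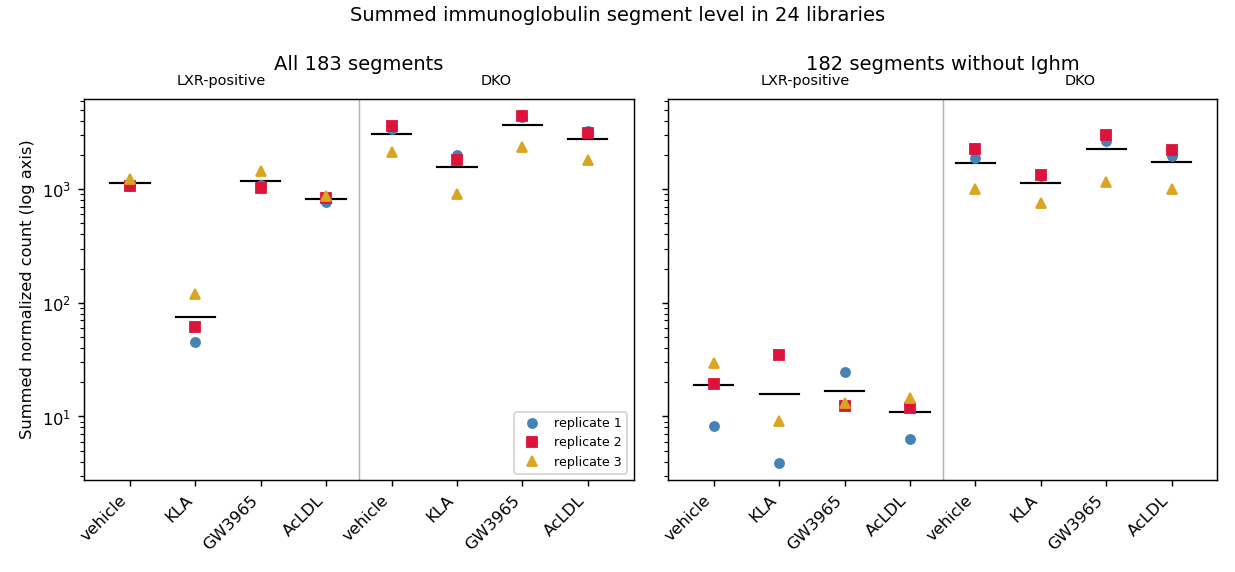
Summed normalized count (log axis) of all 183 immunoglobulin segments (left) and of the 182 segments without Ighm (right), by genotype and treatment. Each point is 1 library, marked by replicate number, and each bar is the mean of 3 libraries. Without Ighm, the LXR-positive libraries lie between 3.91 and 34.4 and the DKO libraries between 750 and 2986.

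Ighm was the only segment above 0 in all 24 libraries. The gene lies on chromosome 12 (GRCm38, chr12:113418558-113422730, minus strand). In LXR-positive libraries it was 1059, 1055 and 1205 with vehicle and 41.7, 27.0 and 111 with KLA, and in DKO libraries 1499, 1320 and 1140 with vehicle and 689, 460 and 149 with KLA. In both genotypes every KLA library lay below every vehicle library. The KLA level was 10.9 to 39.2 times lower than vehicle within the 3 LXR-positive mice, and 2.18 to 7.63 times lower within the 3 DKO mice. In limma fits across all genes, with Benjamini-Hochberg adjustment, Ighm fell with KLA in LXR-positive cells (log2 fold change -4.43, SE 0.52, adjusted p = 6.88e-05) and in DKO cells (log2 fold change -1.85, SE 0.52, adjusted p = 0.0222). The DKO call was lost without DKO KLA replicate 3 (-1.22, adjusted p = 0.0793), without DKO vehicle replicate 1 (-1.76, 0.0714) and without DKO vehicle replicate 2 (-1.85, 0.0574).

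The 2 genotypes differed in how far KLA took Ighm down, by 2.58 on the log2 scale (SE 0.74), but that difference did not pass the threshold over all genes (limma unadjusted p = 0.00454, adjusted p = 0.805). edgeR gave 2.59 with an adjusted p of 0.671. The authors' deposited table gives the same interaction as 2.60 with an adjusted p of 0.002, the single member called there among 25 with an adjusted p for the KLA response, where 54 of 18223 genes were called. Under KLA itself, Ighm was higher in DKO than in LXR-positive cells by 2.83 (SE 0.52, limma adjusted p = 0.0136), a call lost without DKO KLA replicate 2 (2.66, adjusted p = 0.0605) and in a fit of only these 6 libraries (adjusted p = 0.0557). With vehicle the difference was 0.25 (SE 0.16, limma adjusted p = 0.555). GW3965 and AcLDL gave no call for Ighm in either genotype, although AcLDL values were below vehicle in all 6 mice (762, 822 and 857 in LXR-positive, 1334, 906 and 810 in DKO).

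Over all members, KLA gave 2 calls in LXR-positive cells, both lower, where 12.4% of 15957 genes tested were called lower, and 1 call in DKO cells, where 11.1% were called lower. The second LXR-positive call was Ighg1, the IgG1 constant gene, which went from 3, 1 and 3 reads with vehicle to 0 in all 3 KLA libraries (log2 fold change -1.75, limma adjusted p = 0.00492), and it was not called with a pseudocount of 8 (adjusted p = 0.164). Only 15 of 183 members passed the filter on low values in this fit, 19 in the GW3965 fit and 15 in the AcLDL fit. Most passed through DKO libraries alone and were at or near 0 in LXR-positive cells, so a fall there could hardly be called. The small number of calls in LXR-positive cells, and for differences in response, is therefore not read as a result. No member was called for GW3965 or for AcLDL against vehicle in either genotype by limma or edgeR, with 1 or 2 members at an unadjusted limma p under 0.05 in each. Without LXR-positive vehicle replicate 2, 1 member was called for each agent in LXR-positive cells. Of all genes tested, limma called 0.267% for GW3965 in LXR-positive, 0.00621% for GW3965 in DKO, 0.225% for AcLDL in LXR-positive and 0.125% for AcLDL in DKO cells. No member was called for a difference in response between genotypes by either tool, with 2, 1 and 1 members at an unadjusted limma p under 0.05 for KLA, GW3965 and AcLDL. Among all genes limma called 0.0689%, 0.118% and 0.0250% for these 3 differences.

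The other constant genes were found in DKO libraries and were at or near 0 in LXR-positive libraries. Igkc, the one kappa constant gene (chr6:70726435-70726966, plus strand), was 533, 716 and 233 in DKO vehicle libraries and 0, 9.34 and 6.11 in LXR-positive vehicle libraries. Over all treatments it was at least 183 in DKO libraries and at most 10.5 in LXR-positive libraries. Ighg2b, the IgG2b constant gene (chr12:113302965-113307933, minus strand), was 274, 500 and 262 in DKO vehicle libraries and 0, 0.778 and 0 in LXR-positive ones. Ighg1 (chr12:113325240-113330523, minus strand) was 109, 170 and 154 in DKO vehicle libraries. For none of the 3 genes did any DKO library overlap any LXR-positive library.

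Ighg2c (IgG2c, chr12:113285325-113288932, minus strand) and Igha (IgA, chr12:113254830-113260236, minus strand) were at 0 in all 12 LXR-positive libraries. Ighg2c was 64.8, 99.7 and 32.9 in DKO vehicle libraries and Igha 53.7, 62.3 and 13.5. Set against a floor of 3 reads over the 3 LXR-positive vehicle libraries, which is 1.02 normalized counts, Ighg2c was at least 64.6-fold higher and Igha at least 42.4-fold higher in DKO cells with vehicle. Under KLA the bounds were 28.1-fold and 13.5-fold. There the DKO means of both genes were lower than with vehicle, and the floor was also higher. One read was worth 1.30 to 1.52 normalized counts in LXR-positive KLA libraries and 0.778 to 1.22 in LXR-positive vehicle libraries. These floors cover counting error only.

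With vehicle, limma called 10 members higher in DKO than in LXR-positive cells and none lower, where 0.242% of 16116 genes tested were called higher and 0.0745% lower. Under KLA 12 were called higher, where 3.01% of all genes were higher and 3.87% lower. Under GW3965 15 were called higher (4.20% of all genes higher, 5.44% lower) and under AcLDL 12 (3.76% higher, 4.85% lower), and no member was called lower. A total of 17 members were called in at least 1 treatment and 9 in all 4. Only 15 or 19 of 183 members passed the filter in these fits, and most passed through DKO libraries alone. Such members could hardly be called lower in DKO cells. Neither the share of those tested that was called nor the lack of lower calls is therefore read as a result. The differences were large: on the log2(value + 1) scale, with vehicle, Ighg2b was 8.09 higher (SE 0.48, adjusted p = 1.71e-05), Igkc 6.74 (SE 0.81, adjusted p = 0.00302), Ighg2c 5.93 (SE 0.54, adjusted p = 0.000236) and Ighg1 5.41 (SE 0.42, adjusted p = 8.75e-05). These 4 genes were called in all 4 treatments and remained called when any 1 library was left out. Without DKO vehicle replicate 2 the vehicle count was 6, and without DKO KLA replicate 2 the KLA count was 6. In fits of only the libraries compared the counts were 4 with vehicle, 4 under KLA and 7 under AcLDL. Igkc was among the calls lost in such a fit of the vehicle libraries (limma adjusted p = 0.0534). Igha was called with vehicle (5.21, SE 0.83, adjusted p = 0.0211), but not without DKO vehicle replicate 1 (adjusted p = 0.0729) or 2 (0.143) or LXR-positive vehicle replicate 1 (0.0938) or 3 (0.0944). In the other 3 treatments it remained called without each library.

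Set per kilobase of exon, Igkc led the constant genes in DKO libraries, with a mean of 976 normalized counts per kilobase over 12 libraries (range 344 to 1746). Ighm followed at 553 (79.2 to 879), then Ighg2b at 118, Ighg1 at 55.6, Ighg2c at 52.0 and Igha at 16.9. The ranges of neighbours in this order overlapped. The order depends on the annotated exon bases, which were 1326 for Ighg2c against 2592 for Ighg1, 2678 for Ighg2b and 2668 for Igha. Igkc was above Ighm per kilobase in 10 of 12 DKO libraries, and Ighm was above Igkc in mouse 3 with vehicle (604 against 437) and with GW3965 (625 against 474). In LXR-positive libraries the means were 418 per kilobase for Ighm and 8.58 for Igkc.

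**Figure D2:**
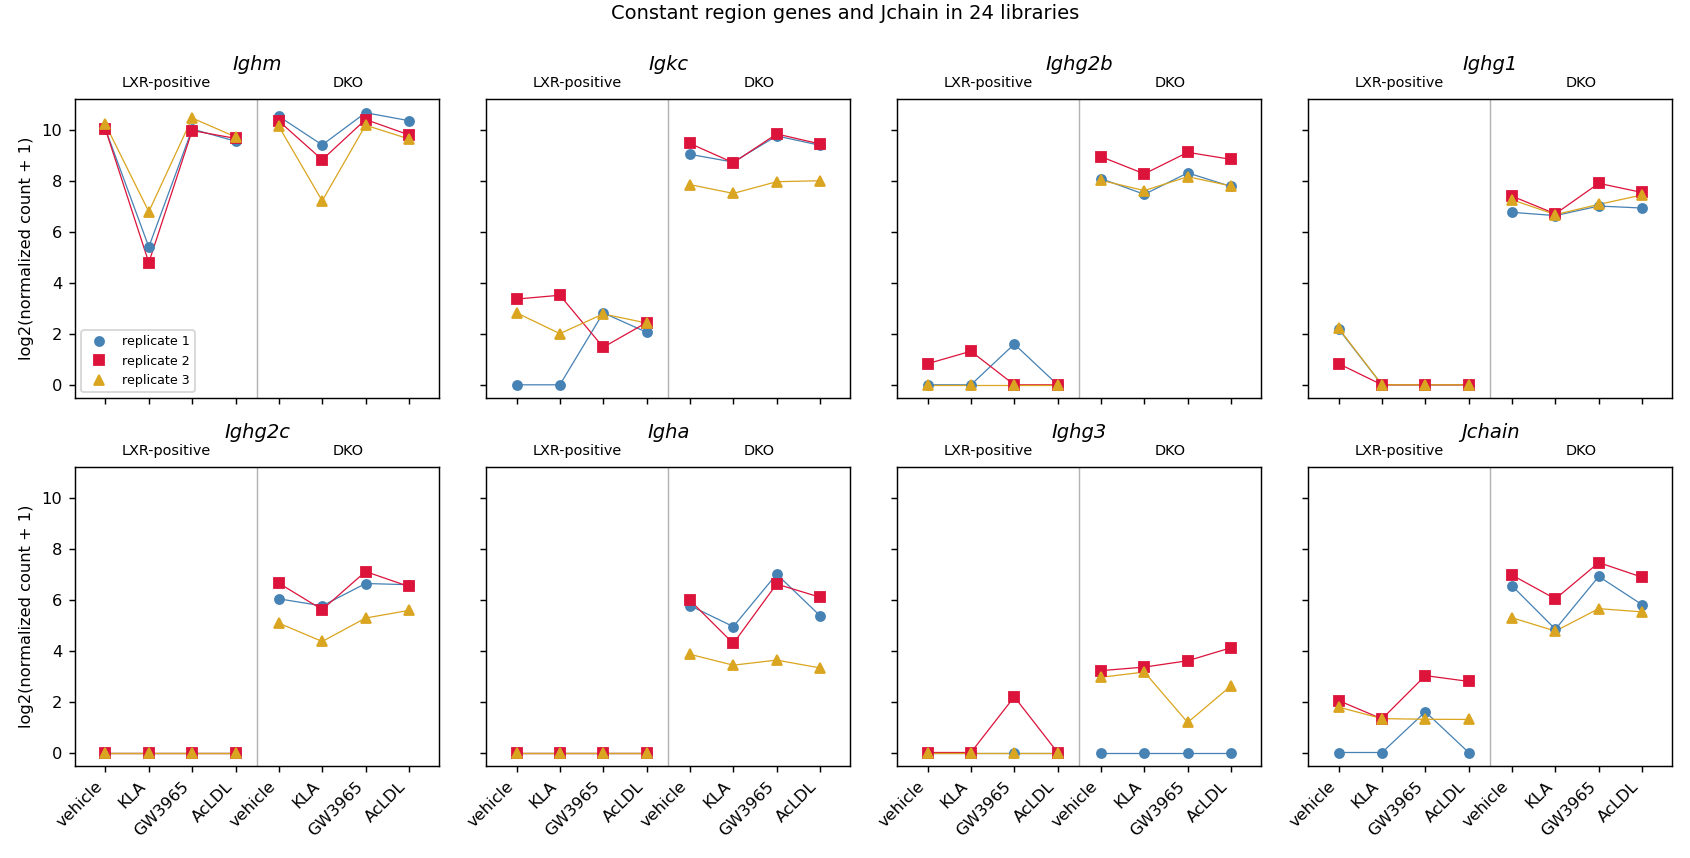
Level, as log2(normalized count + 1), of 7 heavy or light chain constant genes and of Jchain in each of 24 libraries, with lines joining libraries of the same replicate number within a genotype. Ighm is high with vehicle in both genotypes and lower with KLA than with vehicle in each. Igkc, Ighg2b, Ighg1, Ighg2c, Igha and Jchain are higher in each of the 12 DKO libraries than in any LXR-positive library.

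Among the switched isotypes, Ighg2b took the largest share in every DKO library. Of the summed per-kilobase level of the 6 switched constant genes, Ighg2b made 37.9 to 57.2%, Ighg1 17.1 to 35.1%, Ighg2c at most 33.1% and Igha 1.76 to 16.4%. These shares depend on the annotated exon bases given above, which are fewest for Ighg2c among these 4 genes. The balance differed between mice. With the 4 libraries of a mouse pooled, Ighg1 made 20.2 and 20.1% in mice 1 and 2 and 30.8% in mouse 3. The 4 libraries of mouse 3 (27.0 to 35.1%) lay above all 8 others. Pooled in the same way, Igha made 10.7, 6.82 and 2.31% in mice 1, 2 and 3, and mouse 3 (1.76 to 2.72%) lay below all other libraries. Ighg3, the IgG3 constant gene, was at 0 in all 4 libraries of DKO mouse 1 and between 1.27 and 16.4 normalized counts in the 8 libraries of mice 2 and 3. Ighe, the IgE constant gene, was above 0 in 3 DKO libraries, with a highest value of 1.53.

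**Figure D3:**
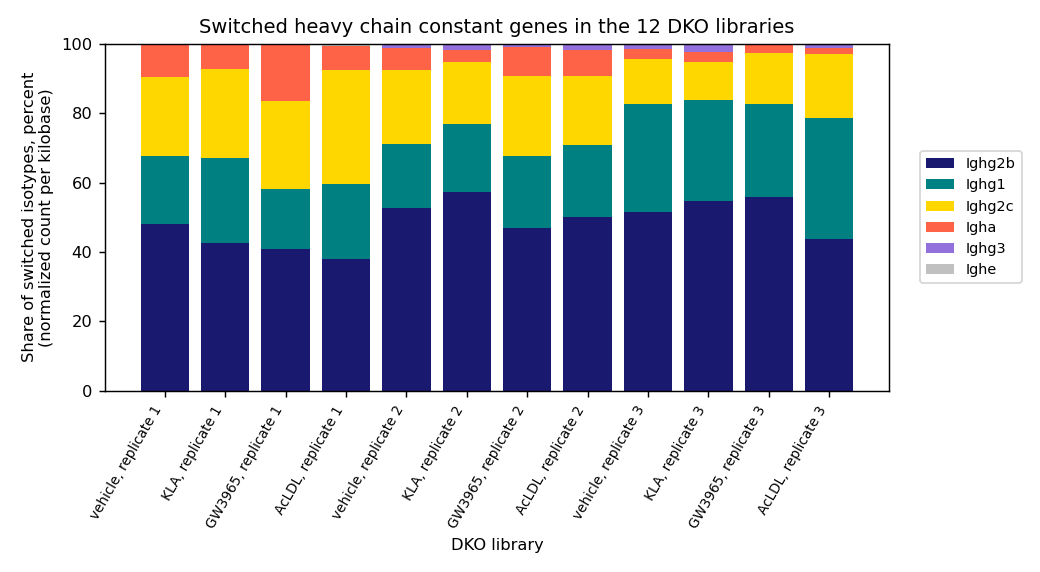
Share (percent, from normalized counts per kilobase) of each of 6 switched heavy chain constant genes in the 12 DKO libraries, ordered by replicate number. Ighg2b makes 37.9 to 57.2% of each bar, the 4 bars of replicate 3 have the highest Ighg1 shares, and Ighg3 is missing from the 4 bars of replicate 1.

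Light chain was almost all kappa. Lambda constant genes (Iglc1, Iglc2 and Iglc3) made 1.14 to 5.02% of the per-kilobase light chain constant level in DKO libraries, with a median of 2.52%. Iglc1 and Iglc2 were at 0 in all 12 LXR-positive libraries and above 0 in all 12 DKO libraries, at 0.925 to 9.29 and 0.612 to 14.4 normalized counts. Iglc3 was at 0 to 1.46 and 0 to 3.99, and Ighd, the IgD constant gene found on naive B cells, at 0 to 2.61 and 0 to 7.30, so both overlapped between genotypes.

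Variable segments, which give each antibody its binding site, were likewise found mostly in DKO libraries. Their summed level was 1.30 to 22.5 normalized counts in LXR-positive and 220 to 1036 in DKO libraries. The rule itself used detection, and most members met it through DKO libraries, so the following counts only describe them. Of all 183 members, 135 were at 0 in all 12 LXR-positive libraries and none was at 0 in all 12 DKO libraries, where 2.83% and 0.155% of the 29079 genes above 0 in at least 3 libraries were. A LXR-positive library held 3 to 16 members above 0 and a DKO library 90 to 148. With each library thinned to 6448579 reads, LXR-positive libraries were expected to hold 2.50 to 11.5 members and DKO libraries 59.5 to 123. For 23 members, all 12 DKO libraries were above all 12 LXR-positive ones, which held for 0.313% of the same 29079 genes. Most members were rare even so, with 106 of 183 having a mean under 1 normalized count over the 24 libraries.

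The heavy chain variable segment Ighv11-2 and the kappa segment Igkv14-126 were high in all 3 DKO mice. As background, this pair is known from B-1a cells, innate-like B cells of the mouse, as the usual pair in antibodies to phosphatidylcholine. Their 3′ ends carry the part of the coding sequence next to the joint, and are shown from the GENCODE M21 annotation of GRCm38, sense strand, last 60 bases of the coding sequence. Capitals mark the last in-frame TGT, the codon of the conserved cysteine that precedes the joint to D or J. From this codon on, itself included, the germline coding sequence runs for 9 to 15 bases in the heavy chain segments printed here and below and for 26 in the kappa segments.
Ighv11-2, chr12:114048241-114048812, minus strand: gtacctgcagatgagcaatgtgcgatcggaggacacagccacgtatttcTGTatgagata
Igkv14-126, chr6:67896172-67896642, plus strand: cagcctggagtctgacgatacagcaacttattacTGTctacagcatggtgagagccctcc
Such a TGT within the last 30 bases was present in 112 of 138 variable members whose annotated coding sequence runs from an ATG to the 3′ end.

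Ighv11-2 was 27.1, 35.6 and 14.9 in DKO vehicle, 7.82, 27.7 and 12.9 in DKO KLA, 49.1, 55.9 and 46.9 in DKO GW3965, and 22.2, 40.5 and 16.1 in DKO AcLDL libraries. In LXR-positive libraries it was at 0 in 10 of 12 and at 5.99 and 1.52 in 2 KLA libraries. Igkv14-126 was at 0 in all 12 LXR-positive libraries and between 6.73 and 56.7 in DKO libraries. In a DKO library, Ighv11-2 took 4.70 to 23.6% of the heavy chain V level and Igkv14-126 2.42 to 14.7% of the kappa V level. Both were called higher in DKO cells with vehicle, by 4.66 (SE 0.45, limma adjusted p = 0.000454) and 4.32 (SE 0.49, limma adjusted p = 0.00182), and these calls remained without each library in turn. In a fit of only the 6 vehicle libraries, Igkv14-126 had an adjusted p of 0.0504. Under KLA, Igkv14-126 was called (3.36, limma adjusted p = 0.00724) and Ighv11-2 missed the threshold of 0.05 by little (2.55, limma adjusted p = 0.050036).

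Among the other variable segments whose DKO libraries were all above all LXR-positive ones were 4 kappa segments, Igkv1-117, Igkv4-55, Igkv12-46 and Igkv10-96. Igkv1-117, Igkv4-55 and Igkv12-46 were called higher in DKO cells in all 4 treatments and Igkv10-96 in 3, by 2.67 to 4.59 on the log2 scale, and each lost at least 1 of those calls when a single library was left out. Without DKO vehicle replicate 2, for example, Igkv1-117 had a limma adjusted p of 0.0968, Igkv4-55 of 0.108 and Igkv12-46 of 0.0717. Ighv1-55, a member of the large Ighv1 family, was called under KLA and GW3965, and its KLA call was lost when any 1 of the 6 libraries was left out (limma adjusted p 0.0506 to 0.127). Ighv1-64, Igkv4-72 and Igkv8-21 were called under GW3965 and not with vehicle, and they did not pass the filter in the KLA and AcLDL fits, so they could not be called there. Ighv4-1 was tested in all 4 treatments and called under AcLDL, and no difference between treatments was tested. Ighv1-64 lost its call without DKO GW3965 replicate 2 (limma adjusted p = 0.0744), and Ighv4-1 lost it without any 1 of 5 libraries (0.0609 to 0.0884). Over the 12 DKO libraries, the Ighv1 family made 54.8% of the heavy chain V level with 44 of its 53 rows.

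Other variable segments were higher in 1 DKO mouse than in the others. In mouse 1, the kappa segment Igkv15-103 was 198, 153, 236 and 206 with vehicle, KLA, GW3965 and AcLDL. In the 8 libraries of mice 2 and 3 it was never above 20.8. It was 36.7 to 47.3% of the kappa V level in the 4 libraries of mouse 1 and 1.02 to 4.64% in the others. In the vehicle library of mouse 1 it had 410 of 1041 kappa V reads (39.4%, Wilson 95% interval 36.5 to 42.4, counting error only). The heavy chain segment Ighv7-1 was also higher in mouse 1, at 48.4, 40.5, 89.0 and 52.8 there and at most 7.19 in the other 8 libraries. So was the kappa segment Igkv1-88, at 40.6, 24.2, 45.1 and 42.1 in mouse 1 and at most 7.96 in the other 8 libraries.

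Other segments were higher in mouse 2 or in mouse 3 than in the other DKO mice, without always being the highest V segment there. With GW3965 and AcLDL, Ighv11-2 and Igkv14-126 had the most heavy and kappa V reads in both of these mice. In mouse 2, Ighv1-81 was 50.4, 27.7, 54.3 and 39.0 in the same treatment order, against at most 8.63 elsewhere, and Igkv9-120 was 29.7, 20.3, 38.3 and 29.6, against at most 5.31. In mouse 3, Ighv4-1 was 15.8, 14.7, 13.9 and 15.5, against at most 11.6, and Igkv12-38 was 5.86, 7.35, 7.60 and 7.73, against at most 1.78. Igkv12-38 was chosen for mention after its values were seen. The 3′ ends of these 6 segments, from the same annotation and with the same codon in capitals, show how they differ next to the joint.
Igkv15-103, mouse 1, chr6:68437440-68437925, plus strand: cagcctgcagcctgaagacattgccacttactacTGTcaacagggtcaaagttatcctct
Ighv7-1, mouse 1, chr12:113896408-113896946, minus strand: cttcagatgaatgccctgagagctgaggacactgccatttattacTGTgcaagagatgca
Ighv1-81, mouse 2, chr12:115920279-115920712, minus strand: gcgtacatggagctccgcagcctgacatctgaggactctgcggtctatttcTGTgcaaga
Igkv9-120, mouse 2, chr6:68049983-68050456, plus strand: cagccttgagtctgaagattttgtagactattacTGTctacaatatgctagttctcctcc
Ighv4-1, mouse 3, chr12:113948282-113948796, minus strand: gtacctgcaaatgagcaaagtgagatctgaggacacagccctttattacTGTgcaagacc
Igkv12-38, mouse 3, chr6:69943186-69943648, minus strand: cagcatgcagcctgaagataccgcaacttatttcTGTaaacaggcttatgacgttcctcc

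In all, 24 of the 163 variable members (14.7%) had the 4 libraries of 1 DKO mouse above the 8 libraries of the other mice: 9 in mouse 1, 13 in mouse 2 and 2 in mouse 3. Over the 27714 genes above 0 in at least 3 DKO libraries, 0.935% did so (0.166, 0.415 and 0.354% for mice 1, 2 and 3). Among the 14590 genes whose DKO mean lay in the range of these 24 segments (0.557 to 72.1), the share was 0.850%, against 18.0% of the 133 variable members in that range. Because these 24 segments set the range, only other variable members could fall outside it, which raised the 18.0% by construction. Of the variable members, 78 were above 0 in at least 2 of the 4 libraries of each of the 3 mice, 47 of exactly 2 mice, 35 of 1 mouse and 3 of none.

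**Figure D4:**
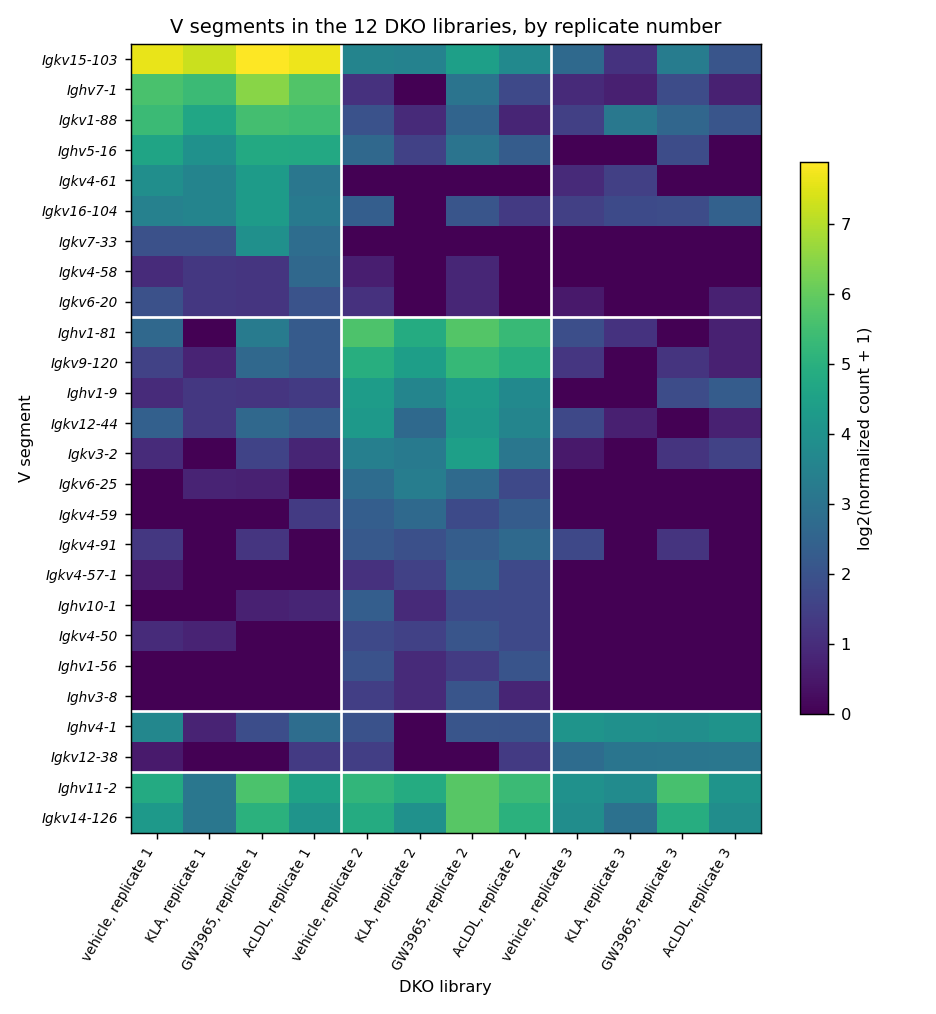
Level, as log2(normalized count + 1), of 26 V segments (rows) in the 12 DKO libraries (columns, by replicate number and treatment). The first 3 blocks of rows hold the 9, 13 and 2 segments whose 4 libraries of replicate 1, 2 or 3 were above the other 8, and the last block holds Ighv11-2 and Igkv14-126, which are high in all 3 replicates.

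The whole V profile followed the mouse in the same way. Across the 163 segments, as log2(normalized count + 1), Pearson's r between libraries of the same DKO mouse was 0.617 to 0.829 over 18 pairs (median 0.733). Between different mice under the same treatment it was 0.341 to 0.534 over 12 pairs, and under different treatments 0.334 to 0.536 over 36 pairs. Each of the 12 libraries was most like another library of its own mouse. These values describe likeness across segments, which are not independent replicates, and libraries of 1 mouse share the animal and its marrow.

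**Figure D5:**
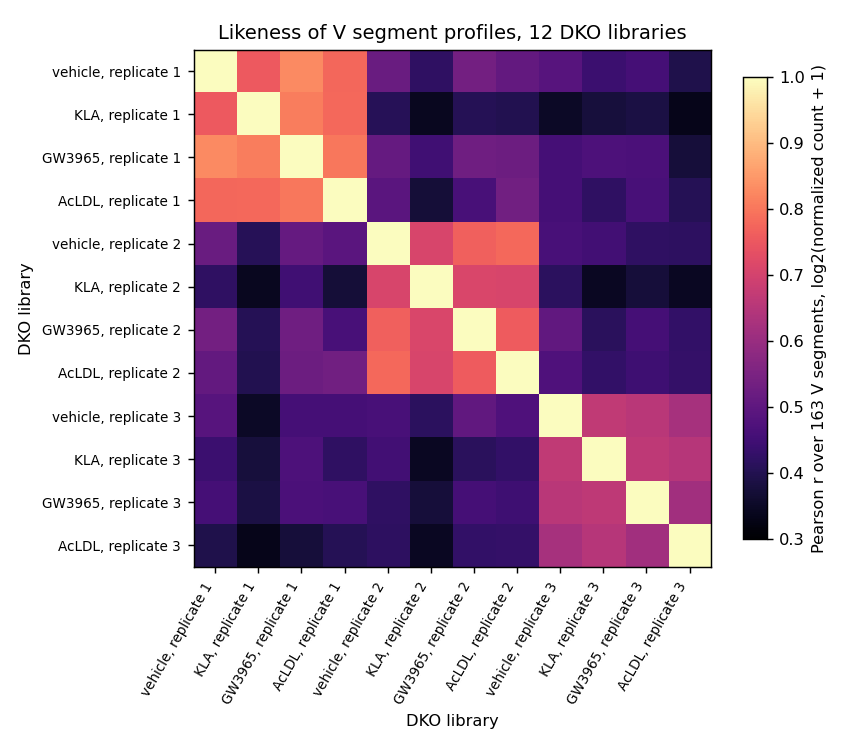
Pearson's r between the V profiles (163 segments, log2(normalized count + 1)) of the 12 DKO libraries, ordered by replicate number and then treatment. The 3 blocks along the diagonal, each 4 libraries of 1 mouse, hold values of 0.617 to 0.829, above the 0.334 to 0.536 outside the blocks.

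Joining segments, the short pieces between V and constant region, were few. The 8 members, Ighj1 to Ighj4 and Igkj1, Igkj2, Igkj4 and Igkj5, summed to 2.25 to 36.8 normalized counts in DKO libraries. In LXR-positive libraries Ighj1 was at 4.45 in 1 AcLDL library and all else was at 0. No diversity segment met the rule.

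Within DKO mice, the sum of the segments other than Ighm was below vehicle with KLA and above it with GW3965 in each mouse. It was 1866, 2275 and 1001 with vehicle in mice 1, 2 and 3. With KLA it was 1306, 1340 and 750, which is 1.43, 1.70 and 1.34 times lower within the mouse. With GW3965 it was 2633, 2986 and 1149, or 1.41, 1.31 and 1.15 times higher, and with AcLDL 1939, 2199 and 1010, or 1.04, 0.966 and 1.01 times the vehicle level. Of the 18 members with a DKO mean of at least 10, 17 (all but Igkv1-88) were below vehicle with KLA in each of the 3 mice, where 31.4% of 15202 genes of that level were, and none was above in each mouse, where 32.4% were. With GW3965 11 were above vehicle in each mouse, where 18.0% of genes were, and none was below in each, where 16.9% were. With AcLDL 7 were below in each mouse (17.3% of genes) and 1 above (17.6%). These 18 members share the same cells and libraries, so their directions are not independent of each other, and of them Ighm alone was called for any treatment in DKO cells.

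Markers of the B lineage were read beside these results. Jchain was called higher in DKO cells in all 4 treatments, by 5.00 with vehicle (SE 0.69, limma adjusted p = 0.00914), 4.33 with KLA, 4.70 with GW3965 and 4.71 with AcLDL (limma adjusted p = 0.0063, 0.00346 and 0.00786). It was 92.9, 125 and 38.3 in DKO vehicle libraries and 0, 3.11 and 2.44 in LXR-positive ones, and no DKO library overlapped any LXR-positive one. Mzb1, a chaperone cofactor of antibody-secreting cells, was at 0 in all 12 LXR-positive libraries and at 0 to 3.20 in DKO libraries, and Derl3 was at 0 in all LXR-positive and 11 of 12 DKO libraries. Of the 11 plasma cell genes listed, 6 were tested and Jchain alone was called between genotypes. Over all treatments the list's summed level overlapped, at 2224 to 3419 in LXR-positive and 2424 to 3285 in DKO libraries. Under GW3965 alone it did not overlap, at 2224 to 2334 in LXR-positive and 2424 to 3000 in DKO libraries. The sum was carried by genes that macrophages also express, such as Xbp1, Sdc1 (syndecan-1, at 149 to 1254 and 268 to 778) and Prdm1. With KLA, Xbp1 rose and Irf4 and Prdm1 fell in both genotypes, and Sdc1 rose and Tnfrsf13b fell in LXR-positive cells.

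Genes of earlier B cell stages were found at a wide range of levels, and 11 of the 22 on the list had a mean under 10 normalized counts. Cd79a, which pairs with surface immunoglobulin, was at 0 to 4.89 in LXR-positive and 1.22 to 12.0 in DKO libraries, Cd79b at 10.2 to 35.6 and 10.9 to 24.5, Ms4a1 (CD20) at 7.49 to 20.4 and 6.31 to 26.6, and Pax5, the B cell identity factor, at 0 to 65.1 and 0 to 24.9. These 4 genes overlapped between genotypes. Of the 22 B-lineage genes, 12 were tested, and between genotypes Cd22 was called higher in DKO under KLA alone. With KLA, Bank1, Cd22 and Il7r fell in both genotypes and Spib rose in LXR-positive cells. The list summed to 2392 to 5971 in LXR-positive and 2747 to 8059 in DKO libraries, with KLA libraries the lowest in each (2392 to 2758 and 2747 to 3361). These sums overlapped between genotypes with vehicle and with KLA. With GW3965 they did not, at 3862 to 5157 in LXR-positive and 5362 to 6976 in DKO libraries. Nor did they with AcLDL, at 5470 to 5971 in LXR-positive and 6360 to 8059 in DKO libraries. The part of any of these cells in the levels of Ighm or of the other segments was not tested.

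The summed levels of markers of other blood cells overlapped between genotypes over all treatments. The 15 T cell genes summed to 134 to 474 in LXR-positive and 147 to 493 in DKO libraries, the 8 natural killer cell genes to 10.2 to 39.2 and 20.3 to 54.4, and the 10 plasmacytoid dendritic cell genes to 2952 to 3953 and 3356 to 4810. Under KLA alone the plasmacytoid dendritic cell sums did not overlap, at 3200 to 3402 in LXR-positive and 4277 to 4810 in DKO libraries. With vehicle alone the T cell sums did not overlap, at 376 to 474 in LXR-positive and 243 to 365 in DKO libraries. Bcl11b, a T cell transcription factor, was at 1.30 to 6.07 in LXR-positive and 6.44 to 10.1 in DKO libraries, also without overlap. The part of these cells in the immunoglobulin levels was not tested. Cd3e was at 0 to 4.45 and 0 to 7.60, Siglech at 5.90 to 43.8 and 13.9 to 34.5, and Trac, the T cell receptor alpha constant gene, at 0 in LXR-positive and 0 to 5.97 in DKO libraries. With KLA, Bst2 rose and Tcf4 fell in both genotypes, Cd4 fell in both, and Cd3d and Cd3g fell in LXR-positive cells. A pair of CD3 genes was called higher in DKO cells in some treatments, Cd3d under KLA and AcLDL and Cd3g under KLA and GW3965. T cell receptor segments, the counterpart of immunoglobulin segments in T cells, were above 0 in at least 3 libraries for 26 of 226 rows. They summed to 40.5 to 87.4 in LXR-positive and 53.8 to 114 in DKO libraries without KLA, and to 1.52 to 3.91 and 6.47 to 7.96 with KLA.

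Over all treatments the 12 macrophage genes summed to 241650 to 460244 in LXR-positive and 154370 to 346374 in DKO libraries. Within each treatment these sums, which were not tested, were lower in DKO without overlap. With vehicle they were 244021 to 316657 in LXR-positive and 191513 to 225930 in DKO libraries. In the same order they were 387059 to 460244 and 304479 to 346374 with KLA. With GW3965 they were 284552 to 321948 and 205719 to 267270, and with AcLDL 241650 to 275879 and 154370 to 199319. Between genotypes Cd68 was called higher, and the efferocytosis receptor Mertk and Mrc1 (CD206) lower, in DKO cells under GW3965 and AcLDL, and Lyz2 (lysozyme) lower under AcLDL. The genes for recombination, class switching and hypermutation summed to 4585 to 6011 and 3952 to 5247 over 15 genes. Their sums overlapped between genotypes with KLA, and were lower in DKO without overlap with vehicle, GW3965 and AcLDL. None of these genes was called between genotypes, and Rag1 was at or below 1.56 in every library. With KLA, Lig4 rose and Dclre1c fell in both genotypes, while Ung fell in DKO cells. The 12 genes of immunoglobulin receptors and handling summed to 19264 to 28190 and 16548 to 36287. Fcgrt, the receptor that recycles IgG, was called higher in DKO cells under KLA and GW3965 and Trim21, a cytosolic antibody receptor, under KLA, while Fcgr3, an activating Fc receptor, was called lower in DKO cells under AcLDL.

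Segments resemble each other, which limits how reads can be assigned. Of all 31-base words of a segment's GENCODE M21 transcript, a median of 53.0% occurred in no other gene over the 163 variable members, and 75 of them had under 50%. For Ighm, Igkc, Igha and Igkv15-103 all words were unique, for Ighg1 98.3%, Ighg2b 90.7%, Ighg2c 85.0%, Igkv14-126 94.2% and Ighv7-1 94.0%. For Ighv11-2 it was 49.4% and for Iglc3 59.2%. Among other called variable segments it was 21.8% for Igkv4-55, 37.4% for Igkv1-117, 40.0% for Ighv1-64, 42.5% for Igkv4-72 and 44.7% for Ighv1-55. It was 50.9% for Igkv8-21, 51.6% for Igkv12-46, 52.0% for Igkv10-96 and 56.8% for Ighv4-1. Reads of all segments from Ighv11-2 on in this list may be shared with near copies. The row of Igkv2-137 shares 301 exon bases with Gm42889 on the same strand.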

How the data were processed

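Total RNA libraries (a stranded kit with 500 ng of RNA, single-end reads of 50 bases) were made from individual mice, per the labels' protocols. The submitters' processing notes name kallisto, DESeq2 and the build GRCm38. No version, annotation release or strand setting was found in the labels or headers. Each deposited value is a count divided by a size factor, a normalized signal the authors wrote in 3 tables with identical vehicle columns. Whole counts, called reads here, were recovered from them (100% of values whole within 0.01 read). Whether they were rounded from estimated counts cannot be told from these values. The deposited log2 fold changes, p-values and Wald score (fold change over its standard error) are the authors' own, per the file headers, and the score was not used.

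The tests were limma 3.58.1 on log2(value + 1), with 4 group means, 12 libraries per table, genes of at least 10 normalized counts in at least 3 libraries, and Benjamini-Hochberg adjustment over all genes tested (called under 0.05), for 13 comparisons. The difference between genotypes with vehicle was fitted in the GW3965 table. edgeR 4.0.16 on the recovered reads was an alternative. It called 46 genes between genotypes with vehicle, 999 under KLA, 1241 under GW3965 and 1189 under AcLDL, of which 7, 10, 13 and 10 were members. The fit was tested on simulated data. R 4.3.3 and Python 3.11.15 were used.

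Replicate numbers were taken as mice within a genotype (6 mice given 4 treatments, per the series' design text). Same-numbered libraries deviated together, with a median r of 0.257 (0.046 to 0.539) over 36 pairs and 34 pairs above 0.1, across 11697 genes. The p-values rest on a spread between libraries that the 4 groups of a fit share, with 3 mice per group. The main fit had no mouse block, so libraries of the same mouse were treated as independent. The comparison of genotypes with vehicle thus also drew its spread from the GW3965 libraries of the same 6 mice. Named were all constant members, the 12 other members with the highest mean, all members called in a comparison, the rows nearest the detection limit and list genes. The members and lists were chosen with earlier results of these data known. Of the 183 members, 183 are in GENCODE M21 and 181 have the same start and end there. Results for some genes of the lists are not reported here.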

Additional observations from a re-analysis of the deposited data

Results flagged for a closer look

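The AcLDL response of Ighg1 (IgG1) differed in direction between genotypes in every mouse. Ighg1 went from 3.57, 0.778 and 3.67 normalized counts with vehicle to 0 in all 3 AcLDL libraries of LXR-positive mice, and from 109, 170 and 154 to 123, 188 and 175 in DKO mice. The difference in response was 1.92 on the log2(value + 1) scale (SE 0.55, limma unadjusted p = 0.00446), and it failed the correction over all genes. With GW3965 the difference in response was of like size (1.94, SE 0.59, limma unadjusted p = 0.00648, adjusted p = 0.721) and with KLA it was 1.28 (SE 0.54). Ighg1 was at 0 in all 9 treated LXR-positive libraries. The LXR-positive vehicle values rest on 3, 1 and 3 reads.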

How the results depend on the processing

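Of 548 recomputed values of the 52 calls on members, 488 stayed past the threshold and 60 did not, and none changed direction. edgeR lost 9 of the 52 calls. A replicate block, which pairs libraries of a mouse, lost 0 of the 52 calls and changed no count of calls by over 1.5 times; with it the Ighm difference in KLA response had an adjusted p of 0.356. Without a filter on low values the members called numbered 7 for KLA in DKO and 1 for AcLDL in DKO cells, and between genotypes 20 under KLA, 43 under GW3965 and 37 under AcLDL. In fits of only the libraries compared they numbered 1 for KLA in LXR-positive cells, and between genotypes 4 with vehicle, 4 under KLA and 7 under AcLDL. A pseudocount of 8 gave 1 call for KLA in LXR-positive and 2 in DKO cells. Leaving out 1 library at a time gave 6 to 10 calls between genotypes with vehicle, 6 to 12 under KLA, 11 to 15 under GW3965 and 8 to 13 under AcLDL. It gave 2 to 3 for KLA in LXR-positive cells, 0 to 1 for KLA in DKO cells, and 0 to 1 each for GW3965 and AcLDL in LXR-positive cells. Without Ighm the log2 ratio of sums was -0.27 for KLA and -0.80 for AcLDL in LXR-positive cells, where all members gave -3.89 and -0.45, and between genotypes 6.49 with vehicle, 6.16 under KLA, 7.08 under GW3965 and 7.29 under AcLDL. With at least 3 reads for detection, a library held a median of 2 members (LXR-positive) or 73 (DKO), against 6 and 116 with any read. Beyond what each alternative changes by construction, the cause was not tested. Depth limits most members, since 106 had a mean under 1 normalized count.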
